A study of Mus musculus with 6 samples.

Results

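The 7 solute carrier families that hold most amino acid transporters of the plasma membrane and lysosome were examined in mouse liver with and without the kinase Pak4 in hepatocytes. They are SLC1, SLC3, SLC6, SLC7, SLC36, SLC38 and SLC43, and their members were taken as all protein-coding rows of the expression table whose symbol belongs to one of them. This gave 65 of 45777 genes. Of these, 35 had enough reads to be tested, 13 had some reads but did not pass the filter, and 17 had 0 reads in every library. The symbols of 2 members, Slc6a19os and Slc7a6os, mark opposite-strand genes that are not transporters, which leaves 63 transporter genes, 34 of them tested.

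Both groups were C57BL/6 mice, 10 weeks old, with floxed alleles of Pak4 (Pak4 flox/flox). The 3 WT libraries came from mice without a Cre transgene, and the 3 Pak4_KO libraries from Alb-Cre; Pak4 flox/flox mice, in which the albumin promoter drives Cre recombinase in hepatocytes. Other liver cells keep Pak4, and the presence of Cre and the loss of Pak4 cannot be told apart in this design. The labels do not say which animals gave the libraries, so p-values measure the spread between libraries, which may be technical.

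Amino acids cross membranes through carriers that couple them to sodium or protons, exchange them for one another, or let them flow down their gradient. Hepatocytes take up alanine, glutamine and the cationic amino acids from portal blood for gluconeogenesis, urea synthesis and protein synthesis. They do so mainly through sodium-coupled carriers of the SLC38 family and the cationic carrier encoded by Slc7a2. Many SLC7 carriers work as pairs, a light chain that transports and an SLC3 heavy chain that brings it to the membrane. Several transporter genes are induced by the transcription factor ATF4 when amino acids are scarce.

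Pak4 was lower in each Pak4_KO library (1.37, 2.24 and 1.90 CPM, counts scaled to the library size) than in each WT library (5.93, 7.15 and 6.44 CPM) (log2 fold change -1.82, SE 0.24, edgeR adjusted p = 0.0169). Its call was lost without WT replicate 1 (adjusted p = 0.0562), WT replicate 2 (0.0608) or Pak4_KO replicate 3 (0.0936). Library totals ran from 39603272 to 52521400 reads. The 9 hepatocyte markers together reached 60266 to 78385 CPM in WT, against 67420.4 to 78401 CPM in Pak4_KO, and all of them were detected. Of the other marker lists, the 6 Kupffer cell markers summed to 228 to 306 CPM in WT and 156 to 206 CPM in Pak4_KO, and the 5 neutrophil markers to 31.4 to 55.8 and 20.4 to 25.2 CPM. The 6 lymphocyte markers, of which Igkc and Jchain held most reads, summed to 4.31 to 4.54 CPM in WT, against 8.07 to 12 CPM in Pak4_KO. The log2 fold change was negative for 6 of 6 Kupffer cell, 5 of 5 neutrophil and 2 of 4 tested lymphocyte markers, of which edgeR called none. The 7 cholangiocyte markers summed to 41.0 to 59.8 CPM in WT, against 54.4 to 83.8 CPM in Pak4_KO, and 6 of the 7 were positive with none called. Endothelial markers summed to 184 to 238 CPM in WT and 185 to 279.5 CPM in Pak4_KO, with 6 of 6 positive. Stellate markers summed to 189.7 to 303 and 172 to 344 CPM, 4 positive and 2 negative. Erythroid markers summed to 205 to 401 and 205 to 319.7 CPM, 2 positive and 3 negative. No marker of these lists was called either. Exocrine pancreas markers summed to 10.2 to 11.5 CPM in WT, against 2.98 to 9.30 CPM in Pak4_KO, all of it Cela1, with Prss1, Cpa1, Pnlip and Ctrb1 at 0. Kidney tubule markers, nearly all Lrp2, had 1.01 to 2.40 CPM in WT and 0.4 to 0.779 CPM in Pak4_KO, with Slc34a1, Kap and Slc12a1 at 0. No marker of the hepatocyte, Kupffer cell, neutrophil, lymphocyte, cholangiocyte, endothelial, stellate and erythroid lists was at 0 in all libraries. The part of these lists in the results that follow was not tested. In whole liver, fewer cells of a type and less RNA per cell cannot be told apart.

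Among the 35 tested members, 1 differed between the genotypes at an adjusted p under 0.05, Slc6a16, which was higher in Pak4_KO. Of all 16197 tested genes, 0.469% were called, made up of 0.265% called higher and 0.204% called lower. No member was called lower by edgeR, and limma-voom called none lower. DESeq2 called 3 members in either direction, against 2.06% of all tested genes. Of these, Slc7a1 was lower (DESeq2 adjusted p = 0.0054), beside 159 of all 16197 tested genes called lower by DESeq2. At an unadjusted p under 0.05 stood 5 members, 3 higher (Slc6a16, Slc6a21, Slc1a2) and 2 lower (Slc7a1, Slc38a1), against 8.21% of all tested genes (4.51% higher and 3.69% lower). The groups did not overlap for 6 members, against 13.4% of all tested genes (7.35% higher and 6.06% lower). Those 6 were Slc6a16, Slc6a21 and Slc6a8 on the higher side and Slc7a1, Slc38a1 and Slc38a7 on the lower. Overlap was judged on CPM. In the deposited TPM, which correct for transcript length, the groups of Slc38a1, Slc38a7 and Slc6a8 overlapped. The log2 fold change was positive for 18 tested members and negative for 17, against 50.7% and 49.3% of all tested genes, with a median of 0.01 against 0.004 over all tested genes. It was under 0.5 in absolute value for 28 of the 35, against 82.9% of all tested genes.

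**Figure D1:**
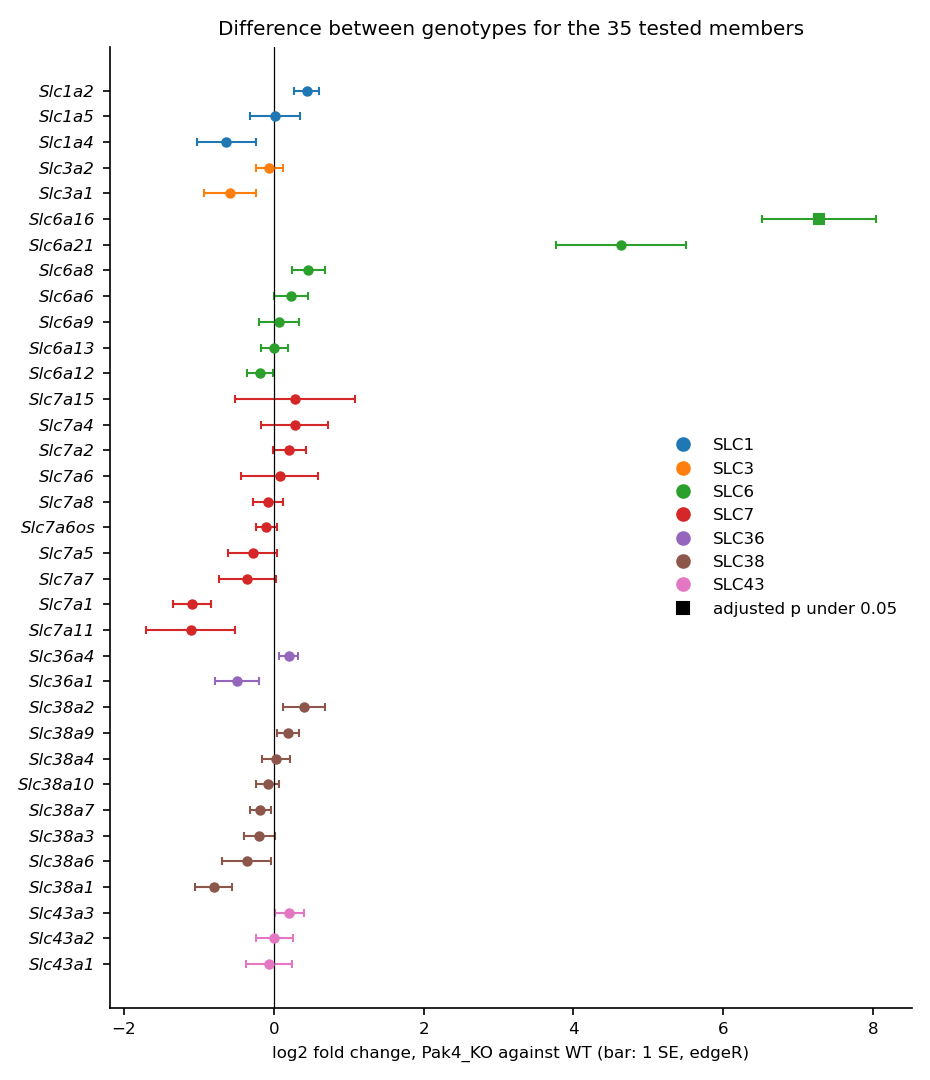
Log2 fold change of Pak4_KO against WT for each of the 35 tested members, grouped and coloured by family, with bars of 1 SE; a square marks an adjusted p under 0.05. Slc6a16 stands at 7.27 and its neighbour Slc6a21 at 4.63, and every other member lies between -1.11 and 0.46.

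Slc6a16 encodes an orphan member of the SLC6 family, which otherwise carries neurotransmitters, amino acids and osmolytes. It had 0, 13 and 0 reads in WT replicates 1, 2 and 3, and 480, 733 and 904 reads in the Pak4_KO replicates. In CPM these are 0, 0.274 and 0 against 11.3, 15.5 and 18.1. The groups were far apart, and a single WT library held all the WT reads. The difference was 7.27 on the log2 scale (SE 0.76, edgeR adjusted p = 0.00544), and the fitted size depends on how the near-zero WT level is handled. It ran from 3.11 to 12.4 over 15 alternatives, all of which called the gene. With at least 10 reads required in every library, Slc6a16 was not tested and the count of called members was 0.

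Slc6a16 lies on chromosome 7 (45240753 to 45273365, GRCm38), the chromosome of Pak4, 16.7 Mb from the start of Pak4. Its adjacent family member Slc6a21 (45277331 to 45288996) showed the same direction at a much lower level, with 0, 0 and 2 reads in WT and 24, 16 and 18 reads in Pak4_KO. This is a ratio of 29.7 per library total, with an exact 95% counting interval of 7.85 to 251. The fitted log2 value of Slc6a21 was 4.63 (SE 0.87, adjusted p = 0.0861). It was 7.26 without WT replicate 3, which held both WT reads, and ran down to 0.283 on the log2(TPM + 1) scale. DESeq2 (adjusted p = 0.0158) and limma-voom (0.0316) called it, and edgeR did not. Slc6a21 passed the filter shared by these fits only through its Pak4_KO reads. With at least 10 reads required in every library it was not tested. No other GENCODE gene matched a transcript of Slc6a16 or Slc6a21 at 90% identity over 100 bases. The small RNA gene Gm23585 overlaps Slc6a16 in the annotation, and its share of the reads was not tested.

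The 250 bases before the annotated start of Slc6a16 (RefSeq, GRCm38.p6, chr7:45240503-45240752, plus strand) are shown because this member differed most between the groups. They are given in lower case, with no capitals because no match to the motif described further on was found in this window.
Slc6a16: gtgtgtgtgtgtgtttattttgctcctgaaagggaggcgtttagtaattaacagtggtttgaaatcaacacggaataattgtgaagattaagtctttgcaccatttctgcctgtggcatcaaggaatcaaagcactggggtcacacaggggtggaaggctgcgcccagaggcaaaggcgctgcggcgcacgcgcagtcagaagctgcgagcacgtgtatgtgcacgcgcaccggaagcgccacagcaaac
The sequence is that of the reference, and whether both groups carry it was not tested. The bases that follow the annotated start were not found in a GENCODE transcript of Slc6a16. Whether this start is used in these livers was not tested.

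Within 0.5 Mb of the start of Slc6a16, 58 genes were tested and 3 were called, against 0.469% of all tested genes. These were Slc6a16 itself, on which the window was centred, Tead2 and Ftl1. The groups did not overlap for 16 of the 58, against 13.4% of all tested genes. Within 20 Mb of Pak4, 11 of 434 tested genes were called. These include Pak4 itself, the gene deleted by design, and the 3 genes called around Slc6a16. Tead2, the gene of a TEAD factor, starts 25 kb before Slc6a16 and averaged 0.182 CPM in WT against 7.40 CPM in Pak4_KO (log2 fold change 5.33, SE 0.24, edgeR adjusted p = 4.51e-05). Between them lies Cd37, a tetraspanin of leukocytes, at 0.828 and 1.58 CPM (log2 fold change 0.94, SE 0.35, adjusted p = 0.5). On the other side of Slc6a21, the cation channel gene Trpm4 stood at 0.57 on the log2 fold change scale (SE 0.41, adjusted p = 0.809). Snrnp70, a spliceosome gene 135.7 kb from the start of Slc6a16, stood at 47.2 and 46.8 CPM. The large differences next to Slc6a16 thus covered Tead2, Slc6a16 and Slc6a21, with Cd37 among them at a smaller one. Ftl1, the ferritin light chain 217.2 kb away, was lower in Pak4_KO (log2 fold change -2.19, adjusted p = 0.000948).

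**Figure D2:**
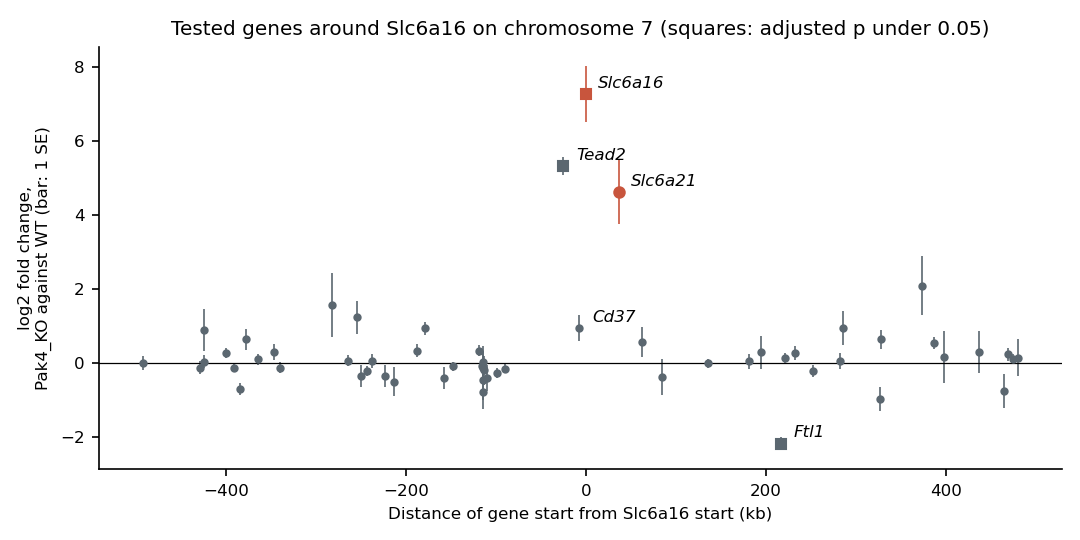
Log2 fold change of Pak4_KO against WT (vertical axis, bars of 1 SE) for the 58 tested genes whose start lies within 0.5 Mb of Slc6a16, by distance from its start in kb. Squares have an adjusted p under 0.05, and family members are red; Tead2, Slc6a16 and Slc6a21 stand above 4 while Cd37 between them stands at 0.94.

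The other members on chromosome 7 did not share this pattern. Slc1a5, the glutamine exchanger known as ASCT2, starts 11.8 Mb on the other side of Pak4. It stood at 2.55, 1.68 and 1.13 CPM in WT and 1.96, 1.65 and 1.82 CPM in Pak4_KO, with the Pak4_KO values inside the WT range (log2 fold change 0.02, SE 0.33, adjusted p = 0.998). Slc7a10, a small neutral amino acid carrier 6.63 Mb from Pak4, had 3 reads in WT and 0 in Pak4_KO. Slc7a9 at 6.89 Mb and the glycine carrier gene Slc6a5 at 21.3 Mb had 0 reads in all 6 libraries. A count of 0 in the 277303660 reads of all libraries allows a level of up to 0.0108 CPM (3 reads). Such limits and intervals cover counting error only.

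Levels between genes were compared on the TPM scale, which corrects for transcript length. Slc38a4, Slc38a3 and Slc7a2 made up 63.9% to 67.9% of the summed TPM of all members in the 6 libraries, and with Slc38a2 the share was 74.5% to 79.9%. Slc38a4 was the highest in every library, at 466 to 663 TPM, above the range of Slc38a3 (283 to 450 TPM). Slc38a3 exceeded Slc7a2 (183 to 342 TPM) and Slc7a2 exceeded Slc38a2 (122 to 321 TPM) within all 6 libraries, although their ranges over libraries overlapped. Next came Slc3a1 (43.8 to 137 TPM) and Slc6a13 (58.7 to 84.2 TPM), whose order changed between libraries. Slc38a2 exceeded Slc3a1 in 5 of 6 libraries, and in WT replicate 2 Slc3a1 was the higher (137 against 122 TPM). The range of Slc6a13 lay above that of Slc3a2. Slc3a2, Slc1a2, Slc6a12 and Slc38a10 followed with mean levels of 41.5, 38.3, 34.0 and 31.3 TPM and overlapping ranges. Slc3a2 was above Slc1a2 in 3 of 6 libraries, and Slc1a2 above Slc6a12 in 3 of 6. The remaining members had lower means.

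**Figure D3:**
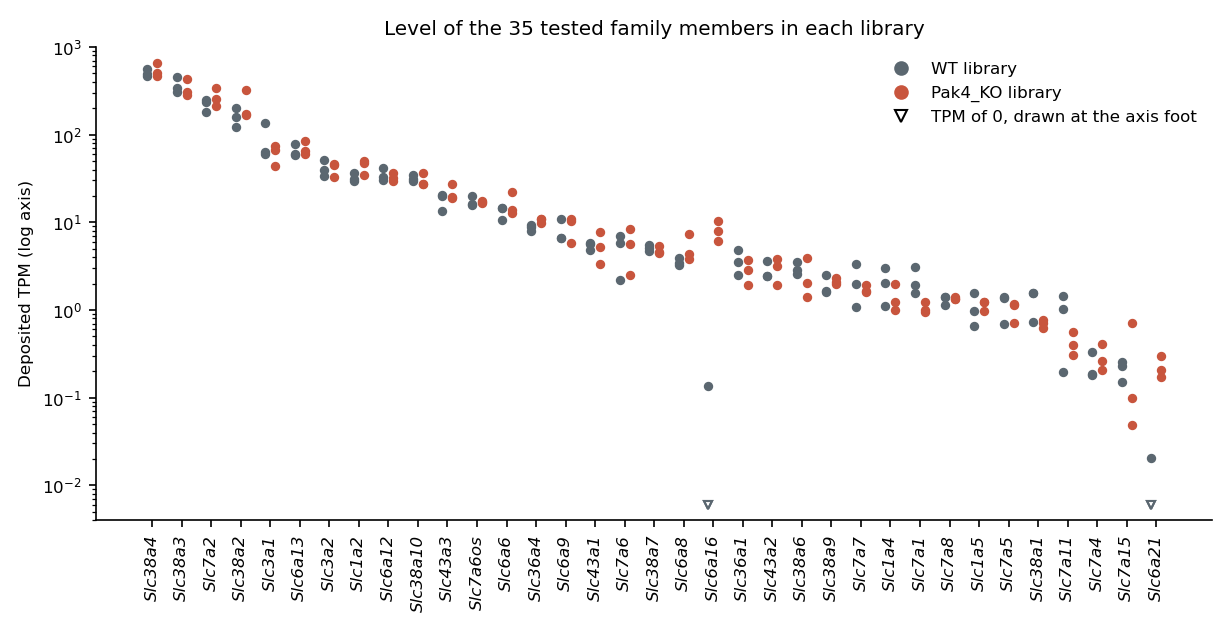
Deposited TPM on a log axis for each of the 35 tested members, ordered by the mean over 6 libraries, with WT libraries in grey and Pak4_KO libraries in red; open triangles mark a TPM of 0. Slc38a4, Slc38a3, Slc7a2 and Slc38a2 lead, and Slc6a16 and Slc6a21 are the members whose groups stand farthest apart.

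Summed by family, TPM were 1076 ± 94.0 in WT and 1150.0 ± 274 in Pak4_KO for SLC38 (SD, n = 3 each), 251 ± 35.6 and 297 ± 68.3 for SLC7, and 129 ± 36.5 and 103 ± 12.5 for SLC3. SLC6 stood at 126 ± 20.6 and 142 ± 21.6, SLC1 at 35.8 ± 4.42 and 46.6 ± 8.30, SLC43 at 26.2 ± 2.94 and 30.4 ± 3.62, and SLC36 at 12.4 ± 0.525 and 13.5 ± 1.07. The smallest exact permutation p of the 7 families was 0.2, for SLC1 and SLC43 (Benjamini-Hochberg 0.56 over the families). With 3 libraries against 3 the test cannot go below 0.1, so it could not have called any family sum. Pak4_KO replicate 1 had the highest sum over all members, 2207 TPM, against 1487 to 1846 TPM in the other libraries.

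System A carriers move small neutral amino acids such as alanine with sodium. The main liver gene of this group, Slc38a4, stood at 1086, 1363 and 1192 CPM in WT and 1514, 1204 and 992 CPM in Pak4_KO, with overlapping groups (log2 fold change 0.03, SE 0.19, adjusted p = 0.996). Its sign turned negative without WT replicate 1 or Pak4_KO replicate 1. Slc38a2, the system A gene that responds to amino acid shortage, was at 546, 353 and 452 CPM in WT and 867, 490.4 and 425 CPM in Pak4_KO. A single library, Pak4_KO replicate 1, stood above the rest, and the log2 fold change was 0.40 (SE 0.28, adjusted p = 0.804). The ratio of Slc38a4 to Slc38a2 on the TPM scale ran from 2.07 to 4.57, with group means of 3.35 ± 1.12 in WT and 2.58 ± 0.451 in Pak4_KO (SD, n = 3 each, exact permutation p = 0.4).

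Slc38a1, the system A gene prominent in brain and a low-level member in liver, was the SLC38 gene with the smallest raw p. It stood at 6.94, 7.39 and 4.02 CPM in WT and at 3.49, 3.56 and 3.48 CPM in Pak4_KO. All Pak4_KO values lay below all WT values and close together, and WT replicate 3 was nearest to them. On the TPM scale the groups overlapped. The log2 difference was -0.80 (SE 0.25, edgeR adjusted p = 0.380), and the adjusted p ran from 0.0909 to 0.783 with 1 library left out. A stretch of 1450 bases of a Slc38a1 transcript matches another annotated gene at 90% identity or more, so its reads may be split. This limit is not particular to Slc38a1. The longest such match was 475 bases for Slc7a2, 585 for Slc7a11, 601 for Slc3a1 and 1261 for Slc6a9. Shorter matches were found for Slc7a1 and Slc3a2, and none of at least 100 bases for Slc38a2, Slc38a3 and Slc38a4.

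Slc38a3 is the system N carrier of glutamine, histidine and asparagine in liver. It averaged 766 ± 138 CPM in WT, against 672 ± 174 CPM in Pak4_KO (SD, n = 3 each, log2 fold change -0.19, adjusted p = 0.903). The other system N gene, Slc38a5, had 0 reads in WT and 2 in Pak4_KO. Among the remaining SLC38 genes, Slc38a7, a lysosomal glutamine carrier, did not overlap between the groups in CPM, but did in TPM. Its WT values were 10.4, 10.6 and 9.54 CPM and its Pak4_KO values 8.59, 8.97 and 9.50 CPM, a small difference (log2 fold change -0.18, SE 0.14, adjusted p = 0.842). The lysosomal arginine sensor Slc38a9 stood at 10.4 ± 1.33 and 11.9 ± 0.691 CPM (adjusted p = 0.842), and Slc38a10 at 84.7 ± 4.41 and 80.0 ± 15.2 CPM (adjusted p = 0.952). For Slc38a6, whose transcripts match many annotated genes, the log2 fold change was -0.36 (SE 0.33). Slc38a8 and Slc38a11 had 2 and 8 reads in WT and none in Pak4_KO.

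Cationic amino acids, which are arginine, lysine and ornithine, enter hepatocytes through the product of Slc7a2. This gene stood at 1059, 1181 and 875 CPM in WT and 1532, 1178 and 884 CPM in Pak4_KO, with overlapping groups (log2 fold change 0.21, SE 0.22, adjusted p = 0.893). Slc7a1, the cationic carrier of most other tissues, had values of 12.5, 6.90 and 8.55 CPM in WT and 5.07, 4.15 and 3.92 CPM in Pak4_KO. All Pak4_KO values were below all WT values, and the WT libraries spread more widely. The log2 fold change was -1.09 (SE 0.25), or 2.12 times lower on average, with an edgeR adjusted p of 0.174. It had the smallest raw p of the SLC7 family (0.00204). DESeq2 called it lower (adjusted p = 0.0054), and the edgeR adjusted p with 1 library left out ran from 0.113 to 0.479. On the TPM scale Slc7a2 was at 221 ± 33.5 in WT and Slc7a1 at 2.19 ± 0.801. Slc7a4, a relative of unclear transport activity, had a log2 value of 0.28 (SE 0.45). Slc7a3 had 0 reads in WT and 2, 5 and 6 in Pak4_KO, a ratio of at least 3.12 by its exact 95% counting interval, and was below the filter (adjusted p = 0.611 without a filter). Slc7a14 had none.

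**Figure D4:**
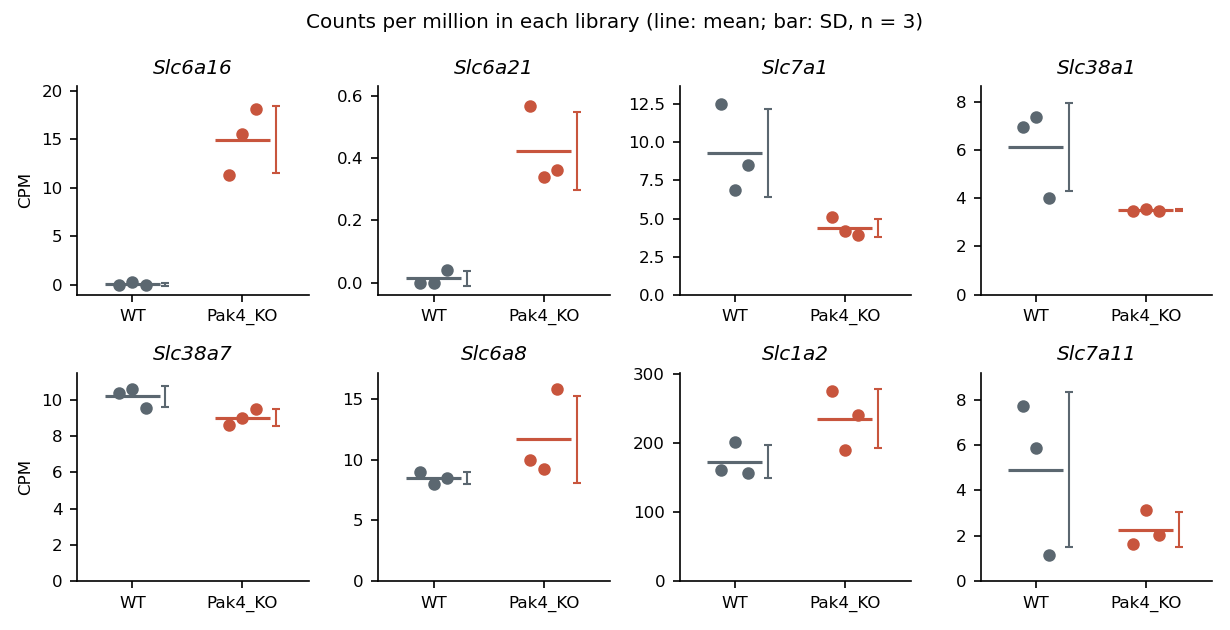
CPM in each library for 8 members, with WT in grey and Pak4_KO in red, a line at the mean and a bar of 1 SD (n = 3). On this scale Slc6a16, Slc6a21, Slc7a1, Slc38a1, Slc38a7 and Slc6a8 show no overlap between the groups, while Slc1a2 and Slc7a11 overlap.

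The heavy chains Slc3a1 and Slc3a2 bring SLC7 light chains to the cell surface. Slc3a1, known as rBAT and best known from kidney and intestine, was at 60.3, 137 and 64.2 TPM in WT and 74.9, 66.5 and 43.8 TPM in Pak4_KO. WT replicate 2 stood well above the others on the CPM scale too (196 CPM, against 54.7 CPM in the lowest library). The log2 difference was -0.58 (SE 0.35, adjusted p = 0.749). Slc3a1 overlaps the gene Prepl in the annotation, so some of its reads may belong to that gene. The light chains known to pair with Slc3a1, Slc7a9 and Slc7a13, had 0 reads in all 6 libraries, as did Slc7a12.

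Slc3a2, the 4F2 heavy chain, was at 51.5, 33.8 and 39.7 TPM in WT and 32.6, 46.3 and 45.3 TPM in Pak4_KO (log2 fold change -0.06, SE 0.18, adjusted p = 0.976), and its sign turned without WT replicate 1 and without Pak4_KO replicate 1. Its light chain partners Slc7a5, Slc7a6, Slc7a7, Slc7a8, Slc7a10 and Slc7a11 summed to 10.5 ± 2.37 TPM in WT and 10.1 ± 2.68 TPM in Pak4_KO (SD, n = 3 each). Slc3a2 transcripts were 3.18 to 6.22 times as abundant as those of its partners together, in every library in excess. The ratio was 4 ± 0.446 in WT and 4.35 ± 1.63 in Pak4_KO (exact permutation p = 0.9).

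**Figure D5:**
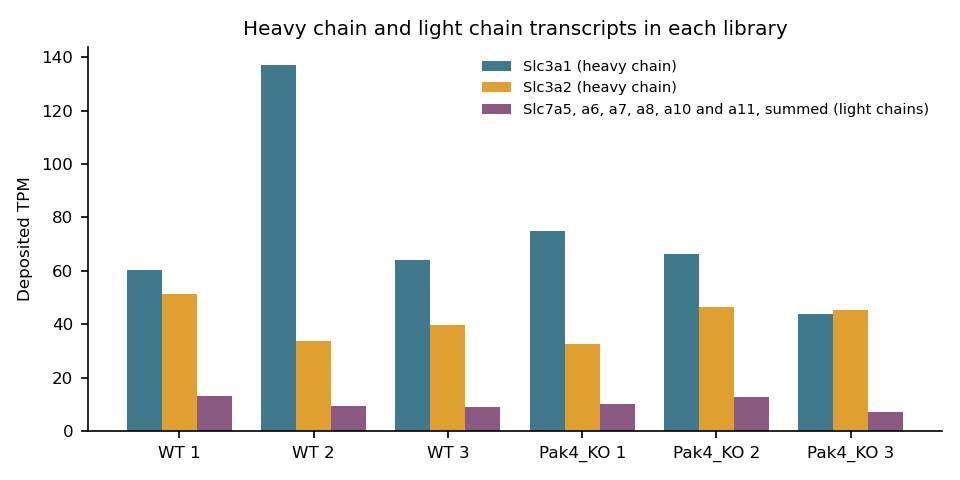
Deposited TPM in each library for the heavy chains Slc3a1 and Slc3a2 and for the summed light chains that pair with Slc3a2. The light chain sum lies between 7.29 and 13.2 TPM, below Slc3a2 in each library, and Slc3a1 is highest in WT replicate 2.

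Among single light chains, Slc7a11, the cystine and glutamate exchanger that feeds glutathione synthesis, had the lowest fitted value. It stood at 7.75, 5.87 and 1.13 CPM in WT and 1.65, 3.13 and 2.02 CPM in Pak4_KO. WT replicate 3 was the lowest of all 6 libraries, so the groups overlapped (log2 fold change -1.11, SE 0.59, adjusted p = 0.699). Slc7a6 varied widely among libraries of the same genotype, at 16.6, 5.41 and 14.4 CPM in WT and 13.4, 19.9 and 5.24 CPM in Pak4_KO. WT replicate 2 and Pak4_KO replicate 3 were low, while the next gene on chromosome 8, Slc7a6os, stayed between 14.2 and 17.9 CPM. Slc7a5, the large neutral amino acid carrier LAT1, was at 2.47 ± 0.830 and 2.02 ± 0.467 CPM (adjusted p = 0.908). Slc7a7 (log2 fold change -0.35), Slc7a8 (-0.08) and Slc7a15 (0.29) had adjusted p-values of 0.897, 0.966 and 0.970.

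Glutamate carriers of the SLC1 family were represented in liver by Slc1a2, known as GLT-1 and as a marker of the hepatocytes around the central vein that make glutamine. It stood at 161, 201 and 157 CPM in WT and 276, 190.0 and 240.0 CPM in Pak4_KO. The groups overlapped through WT replicate 2 and Pak4_KO replicate 2 (log2 fold change 0.44, SE 0.17, adjusted p = 0.541). The 8 pericentral markers, which include Slc1a2, summed to 5156 to 5691 CPM in WT and 4247 to 5623 CPM in Pak4_KO, and 7 of the 8 had a negative log2 fold change, all but Slc1a2. Slc1a4, a carrier of alanine, serine and cysteine, was at 4.72, 7.39 and 2.70 CPM in WT and 4.51, 2.94 and 2.16 CPM in Pak4_KO (log2 fold change -0.63, SE 0.40, adjusted p = 0.761). Slc1a1, Slc1a3, Slc1a6 and Slc1a7, all glutamate carriers, had 15, 66, 8 and 2 reads over all libraries and were not tested.

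The proton-coupled carriers Slc36a1 and Slc36a4 differed in sign. Slc36a1, a lysosomal and intestinal carrier of small amino acids, stood at 10.4, 16 and 8.13 CPM in WT and 10.3, 6.07 and 8.16 CPM in Pak4_KO (log2 fold change -0.49, SE 0.29, adjusted p = 0.729). Slc36a4 was at 28.5, 27.9 and 32.1 CPM in WT and 35, 36.7 and 29.9 CPM in Pak4_KO (0.20, SE 0.13, adjusted p = 0.790). Both pairs of groups overlapped. Slc36a2 had 0 reads, and Slc36a3 had 5 reads in 1 library.

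SLC43 holds facilitated carriers. Slc43a3, which moves purine nucleobases, was at 32.0, 22.2 and 31.5 CPM in WT and 28.9, 31.1 and 39.3 CPM in Pak4_KO (log2 fold change 0.21, SE 0.19, adjusted p = 0.857). The branched-chain amino acid carrier Slc43a1 was at 8.25, 8.92 and 7.40 CPM in WT and ranged more widely in Pak4_KO, at 11.5, 7.79 and 4.38 CPM (log2 fold change -0.06, SE 0.31, adjusted p = 0.994). Its sign turned without WT replicate 2 or Pak4_KO replicate 3. Slc43a2 stood at 11.4 ± 2.84 and 11.5 ± 3.25 CPM (adjusted p = 0.999).

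Besides Slc6a16 and Slc6a21, 5 SLC6 genes were tested, 4 of them carriers of osmolytes, taurine or creatine. Slc6a13, a carrier of GABA and taurine and the most abundant SLC6 gene, was at 76.2, 104 and 78.5 CPM in WT and 106, 77.8 and 76.8 CPM in Pak4_KO. WT replicate 2 and Pak4_KO replicate 1 were the high libraries (log2 fold change 0.01, SE 0.18, adjusted p = 0.999). Its neighbour on chromosome 6, the betaine carrier Slc6a12, was at 54.8 ± 10.6 and 48.3 ± 6.80 CPM (adjusted p = 0.872). The taurine carrier Slc6a6 had 48.8 ± 7.74 and 57.3 ± 18.5 CPM (adjusted p = 0.881), and the glycine carrier Slc6a9 16 ± 5.22 and 16.8 ± 4.60 CPM (adjusted p = 0.987). Slc6a8, the creatine carrier, did not overlap in CPM, at 9.01, 7.98 and 8.51 in WT and 9.98, 9.19 and 15.8 in Pak4_KO. Pak4_KO replicate 3 stood apart (log2 fold change 0.46, SE 0.22, adjusted p = 0.662), and in TPM the groups overlapped.

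SLC6 also held most of the silent members. Of its 22 rows, 12 had 0 reads in every library, among them Slc6a2, Slc6a3, Slc6a5, Slc6a11, Slc6a15, Slc6a17, Slc6a18, Slc6a19, Slc6a20a, Slc6a20b and Slc6a19os. These include carriers of noradrenaline and dopamine and the neutral amino acid carrier of kidney and gut, Slc6a19. Slc6a14, a broad amino acid carrier, had 15, 7 and 12 reads in WT and 0 in each Pak4_KO library. The exact 95% counting interval of the Pak4_KO to WT ratio reached up to 0.117. It was below the filter of the main test, and fitted without a filter it had an adjusted p of 0.22. The serotonin carrier Slc6a4 had 33 reads in WT and 9 in Pak4_KO (adjusted p = 0.755 without a filter), and Slc6a7 had 3 and 11.

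Of the 9 members known to respond to ATF4, 8 were tested and none was called, 3 with a positive and 5 with a negative log2 fold change, at a median of -0.17 against 0.004 over all tested genes. Slc7a11, Slc7a1, Slc1a4, Slc7a5 and Slc3a2 were negative, and Slc38a2, Slc6a9 and Slc1a5 positive. At an unadjusted p under 0.05 stood 1 of the 8, Slc7a1, against 8.21% of all tested genes, and DESeq2 called it. The sequence element bound by ATF4 with C/EBP partners was searched as TGATGNAA on both strands of the 300-base windows around annotated starts, as the single motif searched. It occurred in 3.97% of all 32851 windows, in the windows of 4.51% of all genes, and in those of 4 of the 47 members with a window (Slc7a11, Slc1a4, Slc7a7 and Slc6a21). An annotated start of Slc7a11 lies inside the RefSeq span of the gene (50364936 to 50499087), not at its outer end. The window before it (RefSeq, GRCm38.p6, chr3:50443646-50443705, minus strand) holds a facing pair, starting 66 and 47 bases before that start. It is shown with both matches in capitals.
Slc7a11: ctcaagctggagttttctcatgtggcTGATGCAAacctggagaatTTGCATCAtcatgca
A match describes letters in the reference sequence, not binding in these livers.

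In the wider ATF4 response, 1 of 18 tested genes was called, Asns, the asparagine synthetase, which was lower in Pak4_KO. It stood at 38.2, 52.3 and 67.6 CPM in WT and 5.31, 9.25 and 8.72 CPM in Pak4_KO (log2 fold change -2.76, SE 0.28, edgeR adjusted p = 0.00457). The list had 14 negative and 4 positive values and a median of -0.30. At an unadjusted p under 0.05 stood 6 of the 18, against 8.21% of all tested genes: Asns, Ddit3, Nupr1, Atf3 and Psat1 on the lower side and Vldlr on the higher. Amino acid transporters outside the 7 families, mostly mitochondrial carriers, had 0 of 15 tested genes called by edgeR, against 0.469% of all tested genes. Of the 15, 3 were past an unadjusted p of 0.05, against 8.21%, and 1 was called by DESeq2, against 2.06%. The groups did not overlap for 4 of them on the higher side and 0 on the lower, against 7.35% and 6.06% of all tested genes. The smallest raw p was that of the mitochondrial glutamate carrier Slc25a22, at 78.9, 95.9 and 67.3 CPM in WT and 167, 121 and 177 CPM in Pak4_KO. Its groups did not overlap (log2 fold change 0.94, SE 0.19, edgeR adjusted p = 0.116, DESeq2 adjusted p = 0.000902). The related Slc25a18 was at 0.445 ± 0.147 and 0.923 ± 0.166 CPM (adjusted p = 0.490).

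Genes that signal lysosomal amino acids to the kinase mTORC1 had 0 of 28 tested members called by edgeR, against 0.469% of all tested genes. Past an unadjusted p of 0.05 were 2 (Mtor and Fnip2), against 8.21%, and the median was 0.03 against 0.004. DESeq2, which called 2.06% of all tested genes, called Fnip2, a partner of folliculin, at an adjusted p of 0.0488. The edgeR log2 value of Fnip2 was -0.70 (SE 0.20, adjusted p = 0.289). Mtor, the kinase itself, was at 71.1 ± 5.97 and 104 ± 18.6 CPM (log2 fold change 0.54, adjusted p = 0.316). The carrier partner Bsg had an adjusted p of 0.886, and the SLC6 partner Cltrn was not tested. Of the 5 members known from lysosomes, 4 were tested, 2 positive and 2 negative, and edgeR called none.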

How the data were processed

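Whole liver RNA was made into libraries with a TruSeq stranded mRNA kit, per the labels' protocols. StringTie 2.1.3b, the aligners HISAT2 2.1.0 and Bowtie2 2.3.4.1, and the build mm10 are listed in the submitters' processing notes. How strand and reads with several matches were handled, and which annotation was counted, is not given in the sources used here. Whole-number read counts per gene, not normalized, were deposited by the authors, per the file headers. The deposited TPM values, scaled for length and to a fixed total, were used for levels between genes and in 2 alternatives. The deposited FPKM were not used.

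The main fit of all genes was made in edgeR 4.0.16 under R 4.3.3 (filterByExpr, TMM, quasi-likelihood F-test, two-sided, Benjamini-Hochberg over 16197 genes, threshold 0.05). Every adjusted p in the text is from this fit unless another tool is named. CPM are TMM-scaled, and the standard error is the absolute log2 fold change over the square root of F. The fit was tested on simulated data, where its power was low for small differences. At the 0.05 threshold it detected 1.99% of differences set to 1.5-fold and 35.3% of those set to 2-fold. The rate rose to 79.8% at 4-fold, and 0.0396% of genes without a set difference passed. A gene that was not called can therefore still differ by 1.5-fold or 2-fold. Summed TPM were compared by exact permutation over 6 libraries, whose smallest possible p is 0.1. Positions are from RefSeq GRCm38.p6 (mm10), 1-based, which matched all 65 members by gene ID. Transcripts were compared with blastn 2.17.0 in GENCODE M21. Alternatives were DESeq2 1.42.0, limma 3.58.1 (voom, and trend on log2(TPM + 1) and log2(TPM + 0.1)), other scalings and filters, the replicate block and each library left out.

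The members and lists were chosen with earlier results of these data known. Values per library are given for called members, the 2 members of each family with the smallest raw p, the member of each family with the highest TPM, and members on chromosome 7. Pathway lists are represented by their called genes and, in lists without a call, by the 2 genes ranked first on raw p. Other members described in detail were chosen after their values were seen. Replicate numbers are shared by the groups, but the labels do not say that a number marks animals of the same litter or day. Some items are not reported here.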

Additional observations from a re-analysis of the deposited data

How the results depend on the processing

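Members called higher numbered 1 (Slc6a16) in edgeR, 0 with at least 10 reads required in every library, 2 with DESeq2, 2 with limma-voom and 0 with members within 20 Mb of Pak4 left out. Members called lower numbered 0, and 1 with DESeq2 (Slc7a1). Over all genes, 43 were called higher and 33 lower, against 175 and 159 with DESeq2 and 16 higher with at least 10 reads in every library. Leaving out each library in turn gave 1 member higher each time, and over all genes 22 to 34 higher and 13 to 47 lower. The members' median log2 fold change ran from -0.102 to 0.057 over the alternatives. Of the 18 members followed with each library left out, 6 with small differences turned sign: Slc1a5 (-0.221 to 0.352, with -0.0173 and -0.0368 between), Slc38a4 (-0.144 to 0.162, with -0.0587), Slc3a2 (-0.189 to 0.082, with 0.0546), Slc43a1 (-0.428 to 0.233, with 0.01), Slc6a13 (-0.159 to 0.168, with -0.084 and -0.0534) and Slc7a2 (-0.0098 to 0.384). With the replicate block, 1 member was called higher and 0 lower, 39 and 34 over all genes, and the members' median was -0.065. Same-numbered libraries deviated with correlations of 0.0669, -0.201 and 0.147, so the numbers were not taken to pair the samples. No scaling moved the median of all genes by over 0.1. The 13 members below the filter were tested only in the fit without a filter.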
